A study of Mus musculus with 48 samples.

Results

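Livers carrying mutant β-catenin were compared between 10 and 4 days after the mutation was switched on, in 12 libraries (3 mice at each day, with 1 library of ribosome-protected fragments and 1 of cytoplasmic RNA per mouse) of the 48 in the series. The libraries were chosen by their titles, and the 12 libraries of wild-type mice of the same 2 days were set beside them. The mutant mice, called B, carried 1 Ctnnb1 allele with a floxed exon 3 (Ctnnb1ex3/+), whose excision removes the phosphorylation sites that mark β-catenin for destruction. The other mice were labelled wild-type (WT). All 12 mice were males of 2 to 4 months with a mixed C57BL/6 background, and all were injected with AAV8.TBG.Cre, a virus whose TBG promoter drives Cre recombinase in hepatocytes, so that the virus itself was shared by both genotypes. Only hepatocytes were open to recombination while a whole piece of liver was measured, and the share of hepatocytes that recombined was not measured here.

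Ribosome-protected fragments (RPFs) are the pieces of mRNA that lie inside a ribosome at work, and their count for a gene follows both the amount of its mRNA and how heavily that mRNA is translated. The translation efficiency (TE) is the RPF level relative to the RNA level. β-catenin is the transcriptional arm of the Wnt pathway. In the healthy liver it is active in hepatocytes around the central vein (zone 3), where glutamine synthetase and drug-metabolising cytochromes P450 are made, and inactive around the portal vein (zone 1), where hepatocytes make urea, glucose and serum proteins. Cells warned of a virus or of stray nucleic acid switch on interferon-stimulated genes, and inflamed livers secrete acute-phase proteins into the blood.

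Interferon-stimulated genes were called in the same direction in B for 37 of 39 in RPFs and 37 of 38 in RNA, against 18.2% and 7.92% of all genes, so the promoters of 4 of them are shown first. Factors of the IRF family bind repeats of GAAA, and the letters searched for were GAAANNGAAA on both strands (TTTCNNTTTC when read on the opposite strand). Each line gives the RefSeq promoter from 250 bases before to 50 bases after the transcription start on GRCm38.p6, 5′ to 3′ along the gene, with every match in capitals.
Isg15 (chr4:156200769-156201068, minus strand), 3 overlapping matches: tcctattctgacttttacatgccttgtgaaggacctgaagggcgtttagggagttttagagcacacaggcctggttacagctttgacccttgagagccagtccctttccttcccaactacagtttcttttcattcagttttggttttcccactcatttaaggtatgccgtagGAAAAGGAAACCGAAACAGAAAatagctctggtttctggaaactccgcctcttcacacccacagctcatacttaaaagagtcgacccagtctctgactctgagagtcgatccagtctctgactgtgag
Ifit1 (chr19:34640639-34640938, plus strand), 2 matches: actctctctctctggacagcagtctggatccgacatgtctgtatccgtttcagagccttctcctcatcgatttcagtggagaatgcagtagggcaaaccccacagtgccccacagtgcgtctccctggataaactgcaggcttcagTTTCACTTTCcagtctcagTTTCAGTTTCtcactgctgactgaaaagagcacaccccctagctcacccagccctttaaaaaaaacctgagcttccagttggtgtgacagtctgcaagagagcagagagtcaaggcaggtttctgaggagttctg
Cxcl10 (chr5:92348840-92349139, minus strand), 1 match: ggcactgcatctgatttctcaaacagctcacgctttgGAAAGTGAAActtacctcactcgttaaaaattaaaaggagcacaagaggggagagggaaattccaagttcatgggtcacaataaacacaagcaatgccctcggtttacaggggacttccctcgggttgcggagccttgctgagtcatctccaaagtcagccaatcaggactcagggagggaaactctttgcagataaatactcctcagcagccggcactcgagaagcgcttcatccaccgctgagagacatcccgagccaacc
Irf7 (chr7:141266375-141266674, minus strand), no match: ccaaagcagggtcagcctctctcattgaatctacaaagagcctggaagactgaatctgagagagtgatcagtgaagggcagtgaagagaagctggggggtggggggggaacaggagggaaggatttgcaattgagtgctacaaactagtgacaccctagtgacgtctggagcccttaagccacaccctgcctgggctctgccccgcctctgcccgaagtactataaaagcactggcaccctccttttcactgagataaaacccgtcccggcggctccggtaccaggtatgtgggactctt
Of the 41 interferon-stimulated genes in the list, 31 had a promoter in the RefSeq table, and 19 of these (61.3%) held the letters, against 1079 of the 27025 genes in the table (3.99%). The first match in Isg15 began 78 bases before the start and that in Ifit1 began 104 bases before it. A match is a description of the sequence and not evidence of binding.

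The RPF libraries of B mice held 11851629 to 13261948 counts and those of WT mice 9742197 to 12739173. RNA libraries of the 12 mice held 4645204 to 5908324. Levels are given in CPM, the usual count unit relative to library size, with libraries scaled by the trimmed mean of M-values (TMM). Changes are log2 values from edgeR's quasi-likelihood F test with their standard error (SE), each comparison has 3 mice a side, and a gene was called at a Benjamini-Hochberg adjusted p under 0.1 over all genes tested. Hepatocyte markers were abundant in every library, with albumin (Alb) at 43270 to 57810 RPF CPM in WT mice. In B mice Alb was at 45910, 39150 and 36090 CPM on day 4 and 19660, 21850 and 22660 on day 10, a log2 change of -0.91 ± 0.135 (SE, adjusted p = 0.00318). Mouse 3 of the B day 10 group stood apart from the other 2 in several groups of genes.

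B livers changed far more between the days than WT livers. In RPFs 2083 of 11428 genes tested were higher at day 10 (18.2%) and 1857 were lower (16.2%). Over the same days in WT, 236 of 10899 were higher (2.17%) and 248 lower (2.28%). Tested as the B change minus the WT change over the 12 mice, 973 of 11597 genes had a higher RPF change in B (8.39%) and 1022 a lower one (8.81%). Of the 2083 genes called higher in B, 122 were called higher in WT too and 53 were called lower there, and their median log2 change was 0.66 in B and 0.08 in WT. Of the 1857 genes called lower in B, 58 were lower in WT too and 39 were higher, with medians of -0.53 in B and -0.05 in WT. Of the genes that rose in WT 51.7% were also called higher in B, which is 5.86% of the B list, and of those that fell in WT 23.4% were also lower in B, which is 3.12% of its list. The WT count of 484 was 206 without WT day 4 mouse 1, 322 without WT day 4 mouse 3 and 306 without WT day 10 mouse 3. The difference count of 1995 fell to 1310 without WT day 4 mouse 3 or without WT day 10 mouse 3.

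RNA gave smaller counts from shallower libraries. In B, 890 of 11235 genes were higher at day 10 (7.92%) and 822 lower (7.32%). In WT, 119 of 11026 were higher (1.08%) and 136 lower (1.23%). The B change exceeded the WT change for 495 of 11520 genes (4.3%) and fell below it for 581 (5.04%). RPFs and RNA were called in the same direction in B for 683 higher and 607 lower genes, and in opposite directions for 6 and 2 genes. Across the 10577 genes tested in both assays the B changes had a Pearson r of 0.798, which describes genes that share the same 6 mice. The WT count of 255 was 138 without WT day 4 mouse 1, 142 without WT day 4 mouse 3, 165 without WT day 10 mouse 3 and 430 without WT day 10 mouse 2. The B count of 1712 was 837 without B day 4 mouse 1, 956 without mouse 2, 1103 without mouse 3 and 1040 without B day 10 mouse 2.

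**Figure D1:**
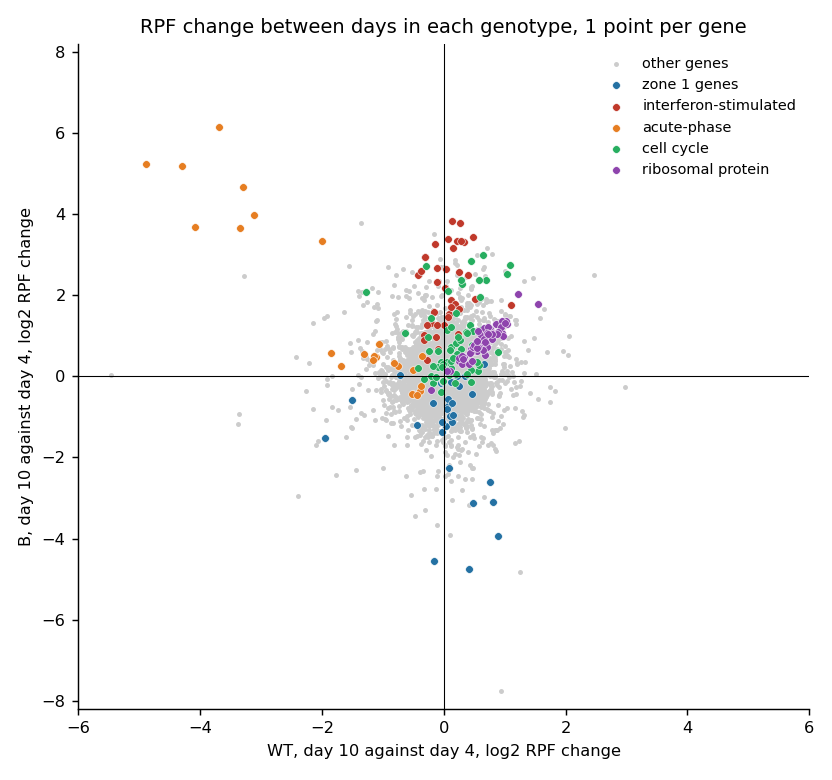
RPF change between day 4 and day 10 in WT (horizontal axis, log2) and in B (vertical axis, log2), with 1 point for each of the 10867 genes tested in both and 5 gene lists in colour. Interferon-stimulated genes other than B2m sit above 0 in B and near 0 in WT, and several zone 1 genes sit far below 0 in B alone. Ribosomal protein genes lie along the upward diagonal. Acute-phase genes lie left of 0 in WT, most of them at the upper left and some at the lower left.

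The β-catenin targets that report the pathway most directly were already above WT in B mice on day 4 and were not called between the days. Ctnnb1 itself (chromosome 9, 120757422 to 120789579, plus strand, GRCm39) was at 315, 365 and 362 RPF CPM on day 4 and 335, 349 and 347 on day 10, a log2 change of -0.01 ± 0.0952 (SE, adjusted p = 0.938). The count covers the whole coding sequence, so it does not check the loss of exon 3. Axin2, the negative regulator that β-catenin induces, had 16.8, 24.8 and 19.9 CPM on day 4 and 18.8, 24 and 17.2 on day 10. The B groups of Axin2 overlapped (log2 change -0.03 ± 0.173, adjusted p = 0.907), and every B mouse lay above every WT mouse, whose range was 1.68 to 3.25. Glul, glutamine synthetase, moved from 2830, 3653 and 4257 to 4709, 3855 and 3077 CPM (0.12 ± 0.192, adjusted p = 0.671) with WT mice at 467 to 795. Lgr5, the receptor that amplifies Wnt signals, and Notum, the enzyme that inactivates Wnt ligands, had log2 changes of -0.28 ± 0.165 (adjusted p = 0.242) and -0.36 ± 0.153 (adjusted p = 0.118). The Notum change passed the threshold without B day 4 mouse 1 (-0.50) or B day 10 mouse 1 (-0.48), and that of Lgr5 without B day 4 mouse 1 (-0.46).

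Of 17 tested genes of Wnt feedback, 1 was called higher and 2 lower in B RPFs, against 18.2% higher and 16.2% lower over all genes, with a median log2 change of -0.36 against 0.01. Fzd7, a Wnt receptor, fell from 20.6, 26 and 25.1 to 7.06, 12.6 and 11.7 CPM (-1.19 ± 0.203, adjusted p = 0.00522). All 3 day 10 mice were below all 3 day 4 mice, and the change was lower than that in WT (difference -1.55 ± 0.316, adjusted p = 0.00751). Tcf7l2, the DNA-binding partner of β-catenin, had a log2 change of -0.54 (SE 0.127, adjusted p = 0.0175). Dkk3, a secreted relative of the Wnt antagonists, was the gene called higher, and it lost its call without any B mouse other than day 10 mouse 1 (log2 0.68 to 1.17 in those sets).

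Among zone 3 genes the direction was divided. Of 30 tested, 4 were higher (13.3%) and 11 lower (36.7%) in B RPFs, against 18.2% and 16.2% of all genes, with a median of -0.27, and 1 was higher (Gstm3) and 1 lower (Slc13a3) in WT. The Gstm3 call was lost without WT day 4 mouse 1 (0.53) or mouse 3 (0.49). The 4 that rose were Slc1a2, Rhbg, Slc13a3 and Oat, and whether they share a function was not tested. Slc1a2, the glutamate transporter GLT-1 (chromosome 2, 102488574 to 102621129, plus strand, GRCm39), had 198, 191 and 378 RPF CPM on day 4 and 1420, 1419 and 1043 on day 10. The lowest day 10 mouse was well above the highest day 4 mouse, the log2 change was 2.34 ± 0.271 (SE, adjusted p = 0.00126), and the RNA change was 2.73 ± 0.282 (adjusted p = 0.000256). In WT the gene stood at 65.2 to 127 CPM on both days, and the difference between genotypes was 2.59 ± 0.362 (adjusted p = 0.000834).

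Rhbg, an ammonium transporter, had 29.2, 44.6 and 56.8 CPM on day 4 and 157, 145 and 75.1 on day 10 (1.53 ± 0.306, adjusted p = 0.00922). The groups were separate, with mouse 3 the lowest of day 10. Slc13a3, a dicarboxylate transporter, rose by 1.09 ± 0.266 on the log2 scale (adjusted p = 0.0195) in B and fell in WT (-0.66 ± 0.161, adjusted p = 0.0567), a WT call lost without WT day 4 mouse 1 (-0.67) or mouse 3 (-0.60). Oat, ornithine aminotransferase, had 2493, 2424 and 3763 CPM and then 5474, 5571 and 3017, so that its groups overlapped through mouse 3 (0.70 ± 0.257, adjusted p = 0.0777). Its call was lost without B day 4 mouse 1 (0.60), B day 4 mouse 2 (0.58), B day 10 mouse 1 (0.57) or B day 10 mouse 2 (0.56).

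The 11 zone 3 genes that fell included 6 cytochromes P450. Cyp2c29 had been higher in B than in WT on day 4, at 2367, 2688 and 2805 CPM, and was at 748, 582 and 720 on day 10 (-1.93 ± 0.131, adjusted p = 0.000185). Its WT mice were at 1243 to 1884 CPM on both days, so that on day 10 the B mice lay below all of them. Csad, which makes the taurine precursor hypotaurine, fell by 2.27 (SE 0.396, adjusted p = 0.00564), and Cyp3a11, a drug-oxidising P450, by 1.10 (SE 0.229, adjusted p = 0.0107). Cyp2e1, another zone 3 P450, kept overlapping groups, with 8108, 8507 and 8239 CPM on day 4 and 8948, 8033 and 6349 on day 10 (-0.09 ± 0.14, adjusted p = 0.683). Counts within the Cyp2c family are uncertain because its members share near-identical stretches.

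Zone 1 genes fell as a group. Of 30 tested, 20 were lower (66.7%) and none higher in B RPFs, against 16.2% lower over all genes, and the median log2 change was -0.88. In WT 5 of the 30 were higher (Etnppl, Sds, Sdsl, Gls2 and Slc7a2) and 2 lower (G6pc1 and Pck1), against 2.17% and 2.28% of all genes, with a median of 0.09. The B change was lower than the WT change for 19 of the 30 and higher for 1, Pck1 (0.93), against 8.81% and 8.39% of all genes, and 15 of 29 were lower in B RNA against 7.32%. Leaving out each B mouse in turn gave 19 to 22 lower genes. The Pck1 difference was lost in 7 of the 12 sets that left out a mouse of either genotype, at 0.74 to 1.00 in those. Of the WT calls, that of Gls2 (0.49) was lost without WT day 10 mouse 1 or any WT day 4 mouse (0.38 to 0.55), that of Sdsl without WT day 4 mouse 1 (0.67), WT day 4 mouse 3 (0.79) or WT day 10 mouse 2 (0.56), and that of Slc7a2 without WT day 4 mouse 1 (0.57).

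Hal, histidine ammonia-lyase, the first enzyme of histidine breakdown (chromosome 10, 93324629 to 93355166, plus strand, GRCm39), was at 634, 341 and 406 RPF CPM on day 4 and 10.3, 12 and 28.7 on day 10. The day 4 values were within or below the WT range of 449 to 772, and all 3 day 10 values were far below (log2 change -4.75 ± 0.424, adjusted p = 0.000538, and -4.74 ± 0.323 in RNA, adjusted p = 1.85e-05). Cyp2f2, the P450 that marks zone 1 (chromosome 7, 26819322 to 26833090, plus strand), went from 2138, 1342 and 1563 to 47.5, 45 and 122 CPM. Its WT mice kept 1795 to 2552, and the B change was -4.55 ± 0.417 (adjusted p = 0.000597). Gls2, the liver glutaminase that feeds ammonia to the urea cycle (chromosome 10, 128030316 to 128045873, plus strand), had 320, 170 and 246 CPM and then 21.9, 19.6 and 42.1 (-3.13 ± 0.329, adjusted p = 0.000944). Mouse 3 of day 10 kept the highest level of each of these 3 genes.

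Etnppl, which breaks down phosphoethanolamine, changed by -3.93 ± 0.45 (adjusted p = 0.00121) in B and by 0.89 ± 0.128 (adjusted p = 0.00503) in WT. Sds, serine dehydratase, changed by -3.10 ± 0.487 (adjusted p = 0.00386) in B and 0.80 ± 0.169 (adjusted p = 0.0295) in WT, where its call was lost without WT day 4 mouse 1 (0.77). The urea cycle enzymes differed among themselves. Otc, ornithine transcarbamylase, had 712, 542 and 548 CPM on day 4 and 234, 248 and 339 on day 10, with no overlap (-1.13 ± 0.167, adjusted p = 0.00318). Cps1, which makes carbamoyl phosphate for the cycle, had 5152, 5084 and 5238 CPM on day 4 and 4909, 5576 and 4963 on day 10, and those groups overlapped (0.00 ± 0.102, adjusted p = 0.991). Ass1, the next enzyme after Otc, was also uncalled (0.01 ± 0.113, adjusted p = 0.968). G6pc1, the last step of glucose release, fell in both genotypes, by 1.51 in B (SE 0.282, adjusted p = 0.00712) and by 1.95 in WT (SE 0.162, adjusted p = 0.000232), and the difference was not called (0.44 ± 0.354, adjusted p = 0.479).

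**Figure D2:**
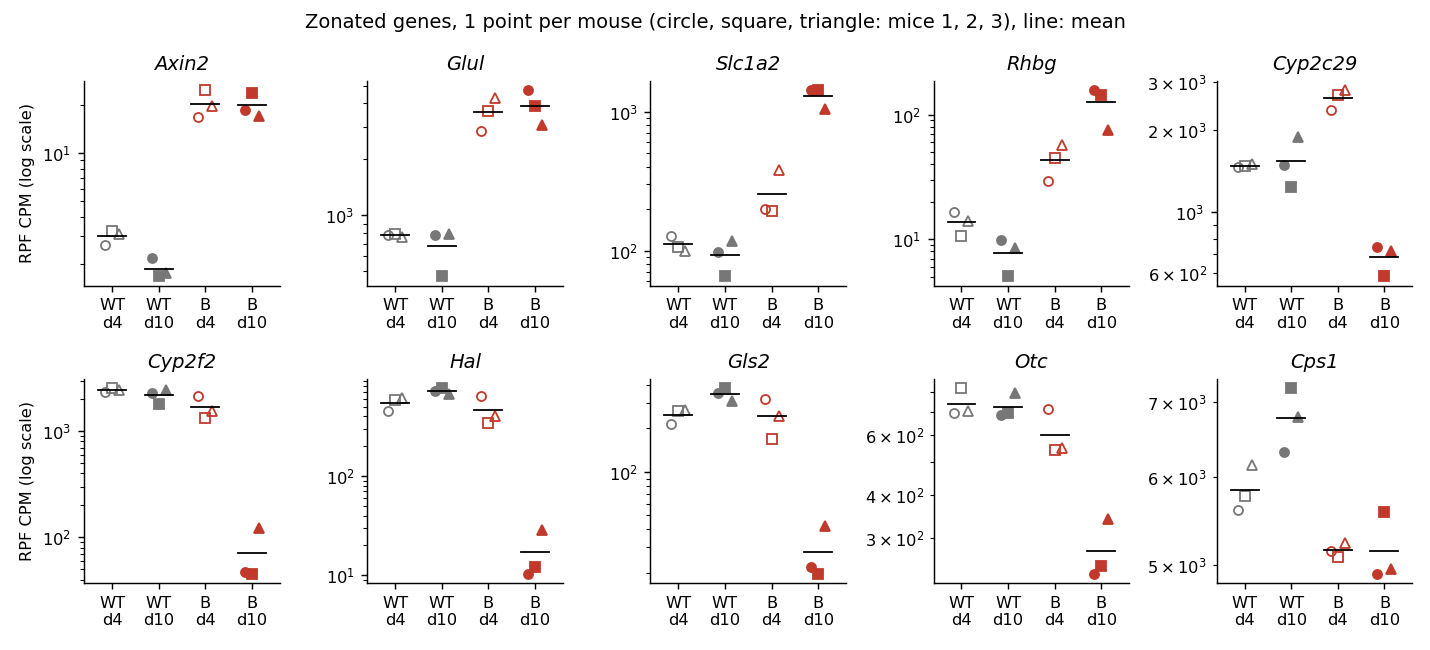
RPF levels of 10 zonated genes (CPM, log scale), with 1 point per mouse, circle, square and triangle for mice 1, 2 and 3, open for day 4 and filled for day 10, grey for WT and red for B, and a line at the group mean. Axin2 and Glul sit at their B level on both days, Slc1a2 and Rhbg climb between the days, and Cyp2c29, Cyp2f2, Hal, Gls2 and Otc drop in B only, while Cps1 overlaps between the days in B.

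Other metabolic genes of the hepatocyte were lower as well. Of 50 cytochromes P450 tested, 35 were lower and 1 higher (Cyp4a31) in B RPFs, against 16.2% lower and 18.2% higher over all genes (the shares to read beside each of the next lists too), with a median of -0.69, while 3 were higher (Cyp2c38, Cyp2c40 and Cyp2c55) and none lower in WT. The Cyp4a31 call was lost without B day 4 mouse 1 (0.68), B day 4 mouse 2 (0.57), B day 10 mouse 2 (0.70) or B day 10 mouse 3 (0.56). Among bile acid genes 12 of 19 were lower and 1 higher, Slco1a4, whose call was lost without B day 4 mouse 3 (0.91). Cyp8b1, the sterol 12α-hydroxylase that sets the share of cholic acid (chromosome 9, 121743422 to 121745371, minus strand, GRCm39), had 697, 407 and 418 CPM on day 4 and 41.1, 30.8 and 47.3 on day 10 (-3.67 ± 0.254, adjusted p = 0.000185). Abcc3, which exports bile acids to the blood (chromosome 11, 94233874 to 94283823, minus strand), had 413, 426 and 416 CPM and then 67, 75.3 and 75.3. Its mice hardly differed within a day, so the change of -2.52 had an SE of 0.0949 (adjusted p = 1.39e-05). The canalicular bile salt pump Abcb11 fell by 0.85 (SE 0.122, adjusted p = 0.00278) and the uptake transporter Slc10a1 by 0.93 (SE 0.113, adjusted p = 0.00154). Cyp7a1, the rate-limiting enzyme of bile acid synthesis, had 267, 551 and 411 and then 178, 241 and 415 CPM, overlapping groups that were not called (adjusted p = 0.243).

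Conjugating enzymes were lower for 20 of 36 and higher for 2 (Sult1a1 and Sult1d1), with counts inside the Ugt2b family uncertain. Fatty acid oxidation genes were lower for 18 of 28 and higher for 2 (Cpt1a and Cyp4a31), of which Cpt1a lost its call without B day 10 mouse 1 or any B day 4 mouse (0.20 to 0.37). Fabp1, the liver fatty acid carrier, fell from 2589, 2350 and 2133 to 1006, 801 and 1138 CPM (-1.26 ± 0.146, adjusted p = 0.00126). Fat synthesis genes were lower for 9 of 19 and higher for 2 (Fads1 and Fads2), the lower ones including the lipogenic regulator Srebf1 (-0.83 ± 0.101, adjusted p = 0.00154) and liver pyruvate kinase Pklr (-1.72 ± 0.114, adjusted p = 0.000185). In B RNA the fat synthesis list was divided, with 5 of 18 lower, 3 higher (Fasn, Fads1 and Fads2) and a median of -0.09. Over all genes 7.32% were lower and 7.92% higher in B RNA. For Srebf1 the WT RPF estimate was 0.73 ± 0.227 and uncalled (adjusted p = 0.129), and it passed without WT day 4 mouse 3 (1.06) or WT day 10 mouse 2 (0.79). Its difference was -1.57 ± 0.292 (adjusted p = 0.00478).

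Cholesterol synthesis genes were more often higher in both genotypes. Of its 24 genes 11 were higher and 3 lower (Tm7sf2, Ebp and Stard4) in B RPFs. In B RNA 12 were higher and none lower, against 7.92% and 7.32% of all genes, with a median of 0.53. The RPF call of Ebp was lost without any B mouse other than day 10 mouse 3 (-0.30 to -0.21) and that of Stard4 without any other than day 4 mouse 3 (-0.28 to -0.19). In WT 6 were higher in RPFs (2.17% over all genes) with a median of 0.31 against 0.17 in B. The RPF difference was called higher for 3 of the 24 and lower for 4, against 8.39% and 8.81% of all genes. Of 22 hepatocyte transcription factors and secreted proteins, 10 were lower and none higher. Transthyretin (Ttr), a carrier of thyroid hormone, fell from 5763, 5296 and 4999 to 2731, 2400 and 2766 CPM (-1.02 ± 0.112, adjusted p = 0.00108). The factor Hnf4a moved from 173, 165 and 172 to 208, 208 and 151 (0.16 ± 0.134, adjusted p = 0.418), and passed without mouse 3 of day 10 (0.30). In these pieces of liver, fewer cells of a type and less RNA per cell cannot be told apart.

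**Figure D3:**
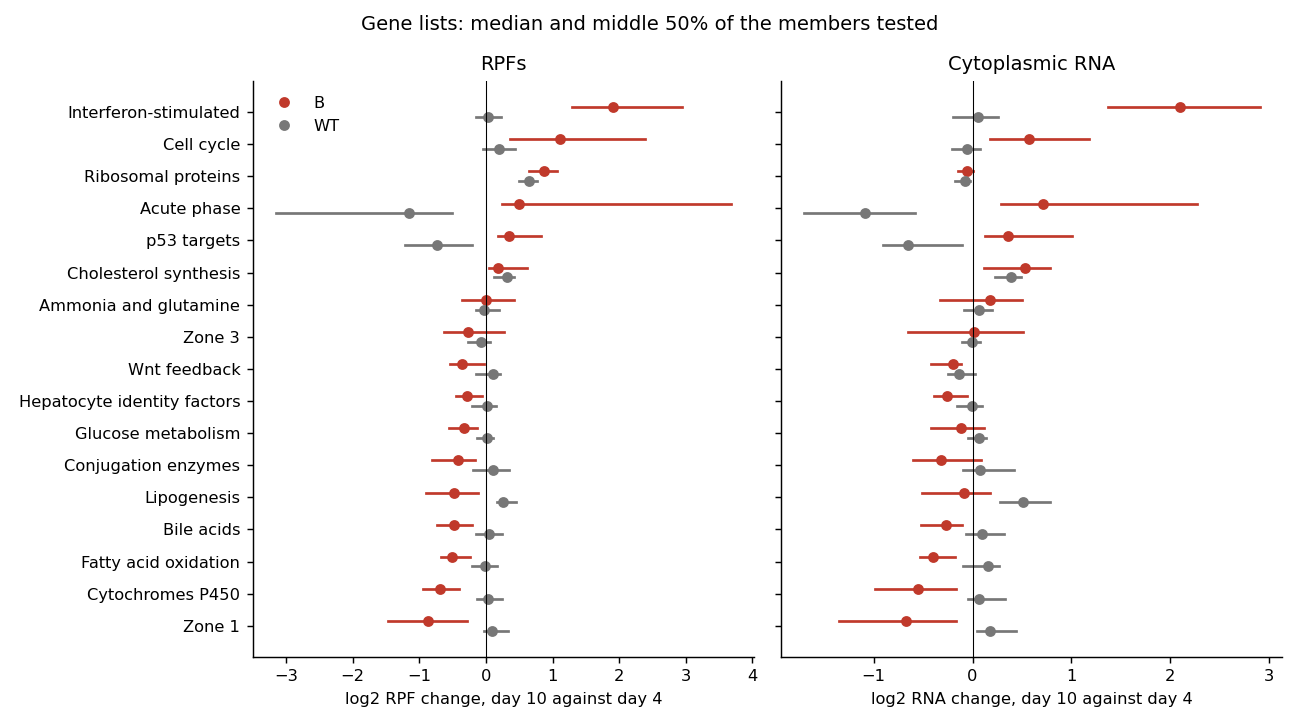
Median (point) and middle 50% (bar) of the log2 change between the days for the tested members of 17 gene lists, in RPFs (left) and cytoplasmic RNA (right), for B in red and WT in grey. Zone 1, P450, fatty acid oxidation and bile acid lists lie below 0 in B and near 0 in WT, and interferon-stimulated and cell cycle lists above 0 in B. The acute-phase list and the p53 list, which includes apoptosis genes, lie on opposite sides of 0 in the 2 genotypes.

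Interferon-stimulated genes rose in B between the days. Of 39 tested, 37 were higher and none lower in B RPFs, against 18.2% higher over all genes, with a median log2 change of 1.92. The 2 uncalled were Bst2 (0.40) and the class I chain B2m (-0.13). In WT 1 was higher (Cxcl9), with a median of 0.03, and the B change was called above the WT change for 37. In B RNA 37 of 38 were higher with a median of 2.10. The day 10 mice lay wholly above the day 4 mice for 37 of 39, against 22% of all genes tested.

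Isg15, the ubiquitin-like protein whose promoter holds 3 overlapping matches above, had 13.9, 20.4 and 24.6 RPF CPM on day 4 and 206, 278 and 77.1 on day 10 in B (3.26 ± 0.438, adjusted p = 0.00234). Its WT mice had 22.9 to 38, so that B lay at the low end of WT or below it on day 4 and above it on day 10. Ifit1, which binds foreign RNA, rose from 6.72, 14.9 and 15.6 to 188, 265 and 57.9 CPM (3.78 ± 0.548, adjusted p = 0.00293). Mouse 3 was the lowest of day 10 for both. Cxcl10, a chemokine that draws T cells, rose from 0.425, 1.19 and 1.56 to 16.1, 11.6 and 7.05 (3.43 ± 0.427, adjusted p = 0.00171). The regulator Irf7, whose promoter window has no match, rose by 1.02 in RPFs (SE 0.164, adjusted p = 0.00409) and 2.12 in RNA (SE 0.389, adjusted p = 0.00668).

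As a mean of log2(CPM + 1) over the 39 genes, the list stood at 3.55, 4.03 and 4.09 in B on day 4 and 5.88, 6.16 and 5.20 on day 10, with WT between 4.21 and 4.50 on both days. Markers of white blood cells were measured beside it. The 16 lymphocyte and natural killer markers had a summed RPF level of 26.03 to 31.29 CPM in B on day 4. On day 10 the sum was 40.49 to 57.53. Only 6 of them passed the filter on low counts in B and 2 in WT. In B 4 of the 6 were higher (Ptprc, Cd79a, Gzma and Gzmb), against 18.2% of all genes. Gzmb had at most 2 RPF counts per B mouse on day 4, so it entered the test through its day 10 level and had to differ. Cd79a lost its call without any 1 of the 6 mice (0.69 to 1.19). The T cell markers Cd3e and Cd8a were at 0 to 0.566 RPF CPM and 0 to 0.336 in the 12 mice. Kupffer cell markers summed to 800 to 891.3 CPM in B on day 4 and 781.6 to 1196 on day 10, with 5 of 13 higher and 1 lower (Cd74), against 18.2% and 16.2% of all genes, and the day 10 mice lay wholly above the day 4 mice for 3 of 13 (23.1%), near the 22% of all genes. Their part in the result was not tested.

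**Figure D4:**
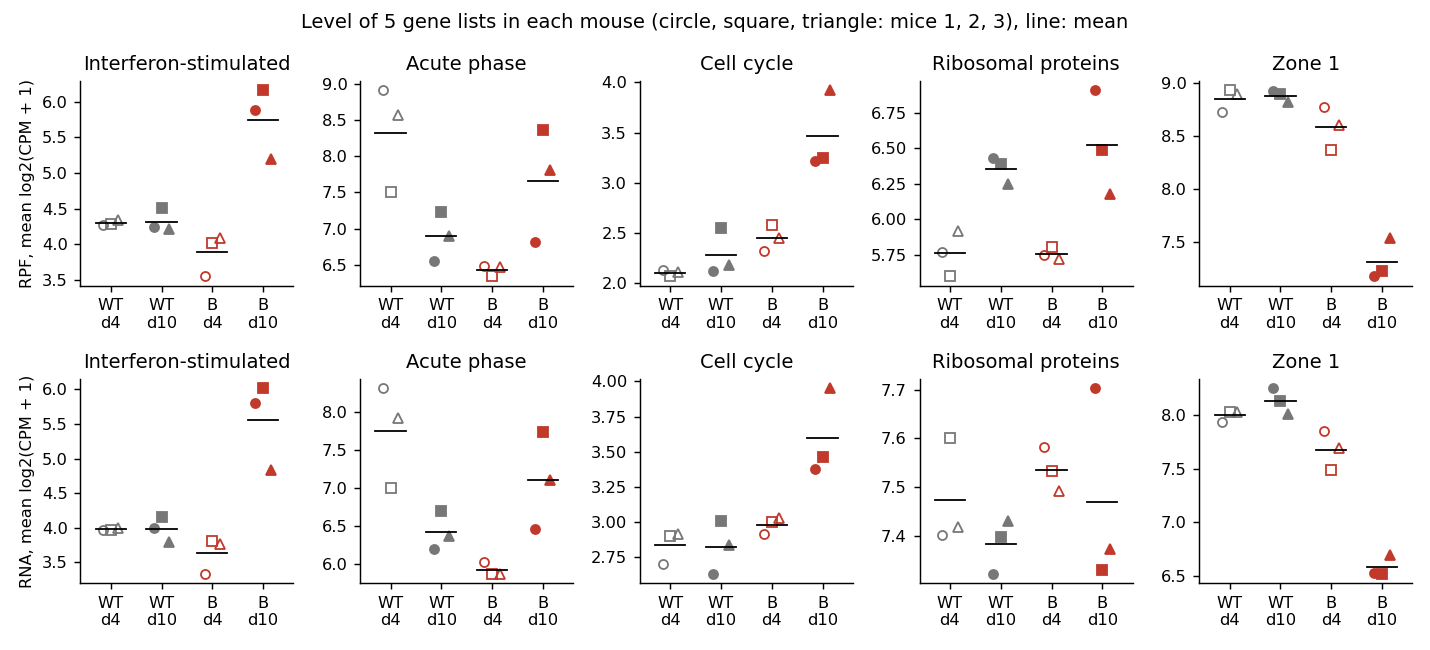
Level of 5 gene lists in each mouse, as the mean of log2(CPM + 1) over the list, in RPFs (upper row) and RNA (lower row), with symbols and colours as in the plot of zonated genes. B day 10 mice stand above the rest for interferon-stimulated and cell cycle genes and below for zone 1, while ribosomal protein genes rise between the days in RPFs of both genotypes and overlap in RNA.

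Acute-phase genes moved in opposite directions. In B RPFs 10 of 25 were higher and 3 lower, against 18.2% and 16.2% of all genes, with a median of 0.50, whereas in WT none of 24 was higher and 17 were lower with a median of -1.16, against 2.28% lower over all genes. The B change was above the WT change for 18 of 25, against 8.39% of all genes. In RNA 13 of 23 were higher in B and 13 of 23 lower in WT, against 7.92% and 1.23% of all genes, and the B count was 7 without B day 4 mouse 2 or B day 10 mouse 2 and 6 without B day 4 mouse 3. Saa1, serum amyloid A (chromosome 7, 46389916 to 46392547, minus strand, GRCm39), had 1293, 157 and 1334 RPF CPM in WT on day 4 and 17.5, 81.9 and 42 on day 10. In B it had 10.6, 11.1 and 17.5 on day 4 and 102, 1042 and 279 on day 10. WT thus started high and ended low, and B did the reverse (log2 change 5.18 ± 0.806, adjusted p = 0.00373 in B and -4.30 ± 0.734, adjusted p = 0.0115 in WT). Saa1 and Saa2 share much of their sequence and are uncertain apart.

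Lcn2, an iron-scavenging protein of inflamed liver (chromosome 2, 32274645 to 32278264, minus strand), had 121, 10.3 and 91.1 CPM on WT day 4, 3.88, 8.79 and 4.67 on WT day 10, 1.19, 2.73 and 3.51 on B day 4 and 31.6, 373 and 131 on B day 10. The change was 6.16 ± 0.918 in B (adjusted p = 0.00328) and -3.68 ± 0.692 in WT (adjusted p = 0.0179). Orm2, an orosomucoid of plasma, and the metallothionein Mt2, which binds zinc, had differences between genotypes of 7.97 ± 1.22 (adjusted p = 0.00144) and 7.76 ± 1.63 (adjusted p = 0.00887). Mt2 reached 0.942, 19.8 and 8.26 CPM on B day 10 from 1.27, 0.341 and 0.623, so that mouse 1 of day 10 lay within the day 4 range. Il1rn, the interleukin-1 receptor antagonist, had at most 2 RPF counts per B mouse on day 4 and was at least 7.29-fold higher on day 10 against a floor of 3 counts per library. The 3 genes called lower in B were Crp, Fga and the fibrinogen chain Fgg (-0.45 ± 0.167, adjusted p = 0.0808), a call lost without B day 4 mouse 1 (-0.26), B day 4 mouse 2 (-0.52), B day 10 mouse 1 (-0.37) or B day 10 mouse 2 (-0.46). Fga lost its call without the same 4 mice (-0.51 to -0.28) and Crp without B day 4 mouse 1 (-0.36) or mouse 2 (-0.38).

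The count of B acute-phase genes called higher was 17 without B day 10 mouse 1. The WT count of lower genes was 10 without WT day 4 mouse 1, 11 without WT day 4 mouse 3, 9 without WT day 10 mouse 1 and 10 without WT day 10 mouse 3. Mouse 2 of WT day 4 held the lowest Saa1, Lcn2 and Orm2 levels of its group, and mouse 1 of B day 10 the lowest of its own. Neutrophil markers summed over 8 genes were at 9.403 to 23.04 RPF CPM on WT day 4, 5.577 to 13.28 on WT day 10, 4.178 to 7.057 on B day 4 and 13.45 to 36.9 on B day 10. Those ranges overlapped in WT and were separate in B. Only 4 of the 8 passed the filter on low counts in RPFs of each genotype. In WT none of the 4 was called, against 4.44% of all genes. In B 3 of the 4 were higher (S100a8, S100a9 and Ly6g), against 18.2% of all genes. S100a9 had a change of 2.72 ± 0.573 (adjusted p = 0.0111). S100a8 lost its call without B day 4 mouse 3 (2.29). Their part in the result was not tested.

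The p53 factor arrests or kills damaged cells, and a list of its targets and of apoptosis genes also differed in direction between the genotypes. Of 19 tested, 6 were higher and 1 lower (Bik) in B RPFs with a median of 0.34. Over all genes 34.5% were called in B RPFs in either direction, and 7 of 19 is close to that share. In WT 1 was higher (Sesn1) and 8 lower with a median of -0.74, against 2.17% and 2.28% of all genes, and the difference was called higher for 11 and lower for 1 (Bik), against 8.39% and 8.81%. The B count of 6 was 3 without B day 4 mouse 1 or mouse 2, and the WT count of 8 was 4 without WT day 4 mouse 1 and 5 without WT day 10 mouse 3. The Sesn1 call was lost without WT day 4 mouse 1 (0.58) or WT day 10 mouse 3 (0.72). Cdkn1a, the cell cycle inhibitor p21, had 76, 71.6 and 72.7 CPM on WT day 4 and 18.1, 9.26 and 13.2 on WT day 10 (-2.43 ± 0.184, adjusted p = 0.000232). In B it had 12.3, 25.2 and 38.4 and then 42.4, 32 and 31.1, groups that overlapped (0.47 ± 0.331, adjusted p = 0.321), and it passed without B day 4 mouse 3 (0.90). Tnfrsf10b, a death receptor, rose by 2.09 ± 0.284 in B (adjusted p = 0.00241) and its difference was 3.43 ± 0.405 (adjusted p = 0.000259). Ccng1, cyclin G1, rose from 6.97, 10.8 and 9.9 to 35.8, 32.2 and 15.9 CPM (1.60 ± 0.3, adjusted p = 0.0073).

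Cell cycle genes were higher at day 10 in B. Of 92 tested of 97 in the list, 65 were higher and 1 lower (Nasp) in RPFs, against 18.2% and 16.2% of all genes, with a median of 1.11. In RNA 36 of 87 were higher, against 7.92%, with a median of 0.57. The Nasp call was lost without any B mouse other than day 10 mouse 3 (-0.46 to -0.26), and the RNA count was 16 without B day 4 mouse 1 and 21 without mouse 2. Only 61 passed the filter on low counts in WT, of which 2 were higher and 1 lower (2.17% and 2.28% over all genes), a count of 0 in both directions without WT day 4 mouse 1 or WT day 10 mouse 3, and genes that entered the B test through their day 10 level alone had to differ. Top2a, the topoisomerase of dividing cells (chromosome 11, 98883769 to 98915062, minus strand, GRCm39), had 5.1, 11.5 and 9.43 RPF CPM on day 4 and 41.4, 42 and 92.6 on day 10 (2.76 ± 0.379, adjusted p = 0.00249). Mki67, the proliferation antigen, rose from 2.89, 7.5 and 4.99 to 14.8, 23.6 and 50.4 (2.53 ± 0.476, adjusted p = 0.00734). Mouse 3 was the highest of both, with no overlap between days. Cdk1, the kinase of mitotic entry, rose by 2.29 ± 0.418 (adjusted p = 0.00671), and Mcm2, of the replicative helicase, by 0.88 ± 0.183 (adjusted p = 0.0107).

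Set against WT fewer cell cycle genes were called. The B change was above the WT change for 14 of 92 genes and below it for 2, Cenpu and Hjurp, and over all genes 17.2% were called in either direction, which is close to 16 of 92. Cenpu had no RPF count in any WT mouse on day 4, so that its fitted value is no bound, and Hjurp (-0.57) lost its call in 8 of the 12 sets that left out a mouse (-0.60 to -0.40). The count of 14 was 4 without WT day 4 mouse 1, B day 4 mouse 1 or WT day 10 mouse 3, 5 without WT day 4 mouse 3 or WT day 10 mouse 1, and 9 without B day 4 mouse 2. It was 32 without WT day 10 mouse 2, the WT mouse with the highest cell cycle level, and 26 without B day 10 mouse 1. Top2a had a difference of 1.67 ± 0.639 that was not called (adjusted p = 0.113) and was called without WT day 10 mouse 2 (2.25) or without mouse 1 or 2 of B day 10 (1.86 each). Hmgb2, a chromatin protein of dividing cells, rose from 8.25, 10.5 and 7.95 to 31.7, 31.7 and 39.6 CPM, and its difference of 1.35 ± 0.285 was called (adjusted p = 0.00886). Ccnd1, cyclin D1, had a B change of 0.75 ± 0.289 (adjusted p = 0.0903), a call that held only without B day 10 mouse 1 among the 6 sets that leave out a B mouse (0.40 to 0.91 in the other 5), while Myc was not called (-0.13 ± 0.447, adjusted p = 0.849).

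Ribosomal protein genes rose in RPFs in both genotypes, and none was called in RNA. In B 70 of 76 were higher and 1 lower in RPFs (median 0.87) against 18.2% higher over all genes, and in WT 63 of 76 were higher (median 0.65) against 2.17%. In RNA none of 80 was called in either genotype, with medians of -0.06 and -0.08. The gene called lower was Rps27l, a stress-linked paralog of Rps27, whose call was lost without B day 10 mouse 2 or without any of the B day 4 mice (log2 -0.35 to -0.25). The difference between genotypes was called for none of 76 (median 0.22), and for 14 without B day 10 mouse 3. Rps20 (chromosome 4, 3792164 to 3835669, minus strand, GRCm39) had 19.2, 22.7 and 20.3 RPF CPM on B day 4 and 119, 84.4 and 50 on B day 10, with 178, 196, 182 and 176, 164, 170 in RNA. In WT it moved from 19.1, 21.7 and 31.9 to 56.3, 59.9 and 51.8. Mice 1 and 2 of B day 10 thus lay above every WT mouse, and mouse 3 just below the lowest WT mouse of day 10.

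Tested as TE, 77 of 10577 genes were higher at day 10 in B (0.728%) and 3 lower (0.0284%). Of the 77, 24 were ribosomal proteins, and others were the elongation factors Eef1a1 and Eef2, which carry aminoacyl-tRNA to the ribosome and move it along. Of the 77, 76 were called higher in RPFs, while 4 were called higher and 7 lower in RNA, and their median changes were 1.09 in RPFs and -0.05 in RNA. By TE change the leading genes were the termination factor Gspt2 (3.14 ± 0.637, adjusted p = 0.0706, under 3 CPM in every RPF library), the histone genes H2bc9 and H3c3, which have near-identical copies, Top2a and Rps20 (2.16 ± 0.311, adjusted p = 0.0168). H2bc9 had at most 4 RPF counts per B mouse on day 4. The 3 lower genes were Gnat1, a transducin subunit of the retina, Akr1c18, a steroid dehydrogenase, and Lars2, the mitochondrial leucyl-tRNA synthetase. Each was higher in RNA. Gnat1 and Akr1c18 had at most 9 and 7 RNA counts per B mouse on day 4, near the floor. Their mean RPF counts there were 152.3 and 346. Lars2 had a mean of 456 RNA CPM against 18.2 RPF CPM on B day 4. With both libraries of a mouse paired, as they came from 1 lysate, the count was 492 higher and 284 lower of 10577, with 70 of 76 ribosomal proteins and 28 of 87 cell cycle genes higher. Without that pairing the 80 calls numbered 0 without B day 4 mouse 1 or mouse 3, 10 without mouse 2, 5 without B day 10 mouse 2 and 236 without B day 10 mouse 3.

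The TE difference between genotypes was called for none of 10821 genes by edgeR (0% higher and 0% lower), where 300 had an unadjusted p under 0.05 and DESeq2 called 1. With the libraries of a mouse paired 9 were called, among them Saa3 (4.30), Mt2 (3.72) and Orm2 (3.17) higher and Atp11a (-2.68) lower, with no ribosomal protein. The ribosomal proteins had a median TE change of 0.92 in B, and no member differed from WT by this test.

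**Figure D5:**
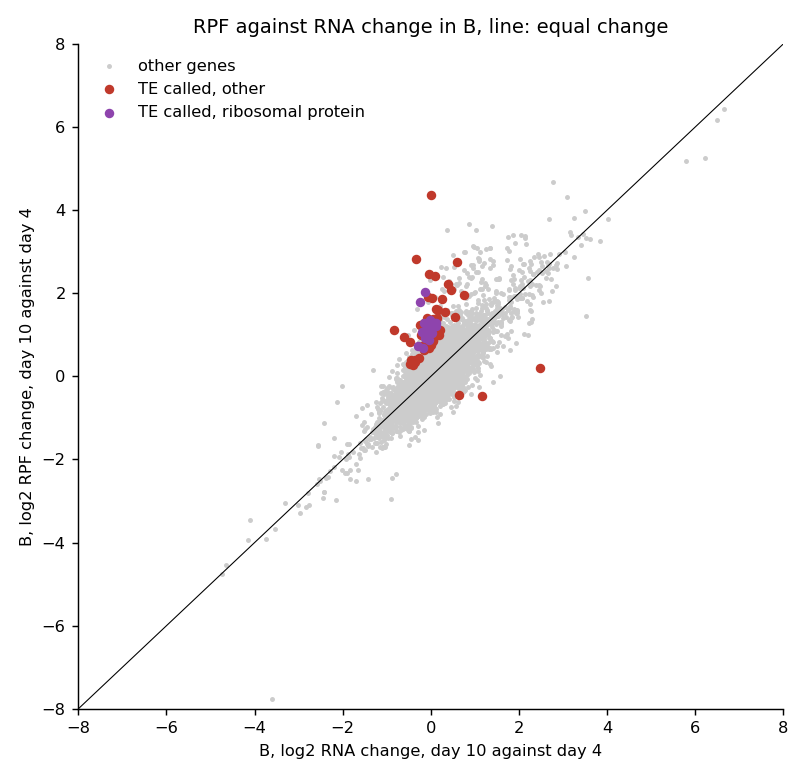
RPF change (vertical axis, log2) against RNA change (horizontal axis, log2) between the days in B, with 1 point for each of 10577 genes, a line where both are equal, and the 80 genes with a called TE change in colour. The ribosomal protein genes sit near 0 in RNA (median -0.06) and above the line in RPFs (median 0.87), and 3 coloured genes sit below the line.

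The other genes given here belonged to none of the groups above, and not all of their changes were large. Ly6d, a surface protein of the Ly6 family, rose from 0.17, 1.11 and 1.64 to 50.3, 117 and 91.2 RPF CPM (6.44 ± 0.486, adjusted p = 0.000238), and in RNA, with at most 2 counts per mouse on day 4, it was at least 48.5-fold higher. Slc13a5, the citrate importer, rose by 3.78 ± 0.472 (adjusted p = 0.00174). Aqp4, a water channel, had 2.3, 1.79 and 1.87 CPM on day 4 and no RPF count in any B mouse on day 10, which makes it at least 9.99-fold lower. Aspg, an asparaginase, fell from 69.8, 50.4 and 55.2 to 2.42, 3.24 and 5.89 (-3.91 ± 0.275, adjusted p = 0.000185). The phosphatase Acp3 and the adipokine Serpina12 fell by 3.45 (SE 0.335, adjusted p = 0.000739) and 3.29 (SE 0.568, adjusted p = 0.00539). Genes of zone 2 (midlobular) and of the IGFBP2, mTOR and cyclin D1 axis did not fall as a list. Of 18 tested, 3 were higher and 5 lower in B RPFs, against 18.2% and 16.2% of all genes, with a median of -0.02. Igfbp2, which binds insulin-like growth factors, fell from 382, 367 and 411 to 106, 91.9 and 264 CPM (-1.33 ± 0.348, adjusted p = 0.0255) and differed from WT (-1.47 ± 0.402, adjusted p = 0.0332). Mtor, the growth kinase, fell by 0.49 in B (SE 0.102, adjusted p = 0.0107) with a difference that was not called (-0.38 ± 0.142, adjusted p = 0.106) and was called without WT day 10 mouse 2 (-0.45). The fetal liver protein Afp rose from 6.04, 11.8 and 10.8 to 26.4, 21.7 and 20.3 (1.26 ± 0.225, adjusted p = 0.00606), and WT mice had at most 2.69.

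Some genes moved in WT and were not called in B. The lectin Clec2h rose from 0.51, 0.672 and 1.56 to 5.42, 8.88 and 7 RPF CPM in WT (2.97 ± 0.352, adjusted p = 0.002), and had 1.01 to 2.81 in B on both days (-0.27 ± 0.411, adjusted p = 0.658). Its difference was called (-3.24 ± 0.6, adjusted p = 0.00468). Moxd1, a monooxygenase, fell from 9.35, 11.8 and 9.46 to 0, 0.654 and 0 in WT while B mice kept 4.44 to 19.7 on both days. In WT RNA Moxd1, with at most 2 counts per mouse on day 10, was at least 8.98-fold lower. Arrdc3, an arrestin-like protein, rose by 1.83 ± 0.297 in WT (adjusted p = 0.00909) with a difference of -2.20 ± 0.521 (adjusted p = 0.0167). The liver factor Onecut1 also rose in WT (2.05 ± 0.263, adjusted p = 0.00363), where its difference from B was not called (adjusted p = 0.463), and B passed too without B day 4 mouse 1 (2.63).

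Liver endothelial markers were lower for 6 of 14 and higher for 1 (Lyve1) in B RPFs, against 16.2% and 18.2% of all genes. In B RNA 1 of 14 was lower (Oit3) and 1 higher (Lyve1), near the 7.32% and 7.92% of all genes. The endothelial markers had a summed level of 1175 to 1307 CPM on day 4 and 940.7 to 1142 on day 10. Stellate cell and fibroblast markers were called for 5 of 12, near the 34.5% of all genes called in B RPFs, being lower for 4 and higher for 1 (Col1a1, lost without any B mouse other than day 10 mouse 1 at 0.64 to 1.09), with sums of 1033 to 1130 and 625.9 to 954.1. Dcn, the matrix proteoglycan decorin, fell from 352, 326 and 306 to 182, 234 and 258 CPM (-0.54 ± 0.133, adjusted p = 0.02). In WT RPFs none of the tested endothelial, stellate or Kupffer markers was called, and in WT RNA 1 stellate marker was higher (Reln, 0.43) and 1 Kupffer marker lower (C1qa, -0.63).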

How the data were processed

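Ribosome-protected fragments and cytoplasmic RNA of the same lysate were sequenced from 3 mice per genotype and day. Per the labels, reads were trimmed with cutadapt 1.18 and handled with SAMtools 1.9, Bowtie2 2.3.5.1, RSEM 1.3.3, DESeq2 and R 4.3.1, as named in the submitters' processing notes, on GRCm39. The authors deposited whole-number RPF counts per coding sequence, and RSEM expected counts per isoform, which were summed per gene and rounded. TPM, FPKM and isoform percent columns of the deposited RNA files were not used.

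Counts were tested with edgeR 4.0.16 (R 4.3.3, limma 3.58.1; TMM; filterByExpr with a minimum count of 10 and a minimum total of 15; quasi-likelihood F test), adjusted over all genes by Benjamini-Hochberg, with a threshold of 0.1. TE was the interaction of day and library type, and the difference was the interaction of genotype and day over 12 mice. Each model without a block was run on simulated counts in which RPFs and RNA were drawn independently. Models with a block, including the paired TE model, were not simulated. DESeq2 1.42.0, other filters, replicate blocks and leaving out each mouse were the alternatives. Same-mouse RPF and RNA deviations correlated at 0.227 to 0.622, so those libraries pair, and the TE counts with and without that block are both given.

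Genes named were members of the gene lists (the cell cycle list is that of Seurat 5.3.0), genes named in the study, and, in each direction, the 10 largest RPF changes in B called the same way in RNA without overlap of mice, and the 5 largest differences from WT, TE changes and changes called in WT but not in B, with a mean count of at least 20 (for TE, at least 4 counts in some mouse of each group). Some genes of the lists are not reported here. The members and lists were chosen with earlier results of these data known. A gene at 3 counts or fewer in every mouse of a group was set to a floor of 3 counts for "at least" folds. Floors cover counting error only. p-values measure the spread between single mice. Ribosomal protein, Saa, Orm, Ifit, Cyp2c, Ugt2b, Gst and histone genes have near-identical copies and are uncertain one from another. Promoters are RefSeq's on GRCm38.p6, and gene positions are those of the GRCm39 annotation.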

Additional observations from a re-analysis of the deposited data

Results flagged for a closer look

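The genes whose change between the days differed between B and WT by the interaction test were picked out for a closer look. There were 973 with a higher and 1022 with a lower RPF change in B, and 495 and 581 in RNA. The 5 genes with the largest positive RPF differences, as B change minus WT change on the log2 scale, were Saa2 (10.14), Lcn2 (9.84), Saa1 (9.48), Orm2 (7.97) and Mt2 (7.76). In each of them B rose and WT fell. The 5 with the largest negative differences were Aqp4 (-8.50), Hal (-5.16), Etnppl (-4.82), Cyp2f2 (-4.38) and Aspg (-4.02). The fitted value of Aqp4 depends on the prior count, since no B mouse had an RPF count on day 10.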

How the results depend on the processing

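Single named genes were followed through the alternative runs in the RPF comparisons and, for the leading TE genes, in B TE. Their RNA calls were not followed gene by gene. Among the runs that tested the gene, no called gene changed sign. The balance of higher and lower calls, near even, did turn in places. WT RNA had 46.7% of its calls higher, 54.6% with no filter on low counts and 56.7% without WT day 10 mouse 2. WT RPFs had 48.8% higher, and 53.1%, 51.9% and 53.9% without WT day 4 mouse 3, WT day 10 mouse 1 or WT day 10 mouse 3. B RNA had 52% higher, and 49.6% without B day 4 mouse 1 or B day 10 mouse 1. The differences from WT had 48.8% higher in RPFs and 46% in RNA, and 50.1% and 50.2% with no filter on low counts, with 50.7% in RNA without WT day 4 mouse 2. Over the named genes, 5753 values stayed on their side of the threshold, 327 were lost and 132 were gained, and 161 of the medians of gene lists moved by more than their spread against 1463 that did not. The B TE count of 80 was 181 with DESeq2, 199 with the WT mice in the same fit and 776 with the mouse as a replicate block, where 63.4% of calls were higher against 96.2% without it. The WT RNA count of 255 was 511 with no filter on low counts. The TE difference count of 0 was 1 with DESeq2, 9 with the replicate block and 1 with RNA of the RPF transcript only. Leaving out each mouse gave 2657 to 4451 B RPF calls, 837 to 2150 in B RNA, 0 to 236 in B TE, 206 to 698 in WT RPFs, 138 to 430 in WT RNA, 1310 to 2353 RPF differences, 738 to 1321 RNA differences and 0 to 1 TE differences. The cause was not tested. Replicate numbers do not pair mice across days (correlations of -0.155 to 0.138). A block on them gave 1885 higher and 1679 lower genes in B RPFs, 997 and 930 in B RNA, 174 and 179 in WT RPFs, 89 and 110 in WT RNA, 875 and 901 RPF differences and 522 and 602 RNA differences. With 3 mice a side and RNA libraries of at most 5908324 counts, low genes and TE changes are the least precise.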
